A study of Mus musculus with 35 samples.

Results

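The genes described here are 35 genes of the unfolded protein response and of the protein-folding machinery of the endoplasmic reticulum (ER), measured in mouse lung a day after nanomaterials were instilled. They were chosen by name, as every array probe whose accession maps to 1 of the 35 symbols, among 20660 genes with a symbol on the array. All 35 were found, on 45 probes, and all 35 passed the filter on dim probes. The mice were female C57BL/6, 5 to 7 weeks old, and received 1 intratracheal instillation of 40 µl. There were 7 groups of 5 arrays: control (labelled 0 µg) and the nanomaterials NRCWE-043, NRCWE-044 and NRCWE-045 at 18 µg (the medium dose) and 54 µg (the high dose) per animal, with tissue taken after 24 h. What the control mice were given, what the coded materials are made of, and whether the 5 arrays of a group come from 5 mice are not given in the sources used here; RNA came from random sections of lung, so a p-value here weighs a difference against the spread among arrays of a group, which may be technical. Each array compared lung RNA, in the Cy5 dye, with a reference RNA pooled from mouse cell lines, in Cy3. A level is therefore the log2 ratio of lung to reference on that array, a change is a difference between the mean log2 ratios of 2 groups (±SE where given), and levels cannot be set against each other between genes.

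The ER is where secreted and membrane proteins are folded. When unfolded proteins build up there, 3 sensors in its membrane, Ire1 (gene Ern1), Perk (Eif2ak3) and Atf6, start the unfolded protein response: Ire1 splices the Xbp1 messenger RNA, Atf6 is cut to release a transcription factor, and Perk slows translation while favouring that of Atf4. Xbp1 and Atf6 are known to induce chaperones, disulfide isomerases and the machinery of ER-associated degradation, and Atf4 induces Ddit3 (CHOP), Trib3, Chac1 and Asns. In the lung, alveolar type 2 cells, airway secretory cells, macrophages and plasma cells carry much secretory work. The array does not separate spliced from unspliced Xbp1 or measure any of the proteins.

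A known DNA element of this response is the ER stress response element (ERSE), CCAAT and CCACG separated by a spacer of 9 bases. RefSeq promoters on GRCm38.p6, from 250 bases before to 50 bases after the annotated start, were present for 30 of the 35 genes. The full element, searched on both strands, was found in 9 of these 30 genes against 0.119% of 32851 promoters. The other 21 genes lacked it. The genes were chosen as members of this response, and the elements searched here are known from it. Their shares are therefore no independent test. The sites are shown with the constant parts in capitals, each read 5′ to 3′ on the strand that carries it. The strand is named relative to the gene.
Hspa5, 65 bases before the start, same strand: CCAATcggaggcctCCACG
Hsp90b1, 212 bases before the start, same strand: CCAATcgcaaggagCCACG
Hsp90b1, 107 bases before the start, opposite strand: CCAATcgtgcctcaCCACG
Calr, 162 bases before the start, opposite strand: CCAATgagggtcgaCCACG
Canx, 145 bases before the start, same strand: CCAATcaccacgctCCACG
Pdia6, 98 bases before the start, same strand: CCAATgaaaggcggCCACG
Dnajc3, 105 bases before the start, same strand: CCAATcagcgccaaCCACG
Creld2, 126 bases before the start, opposite strand: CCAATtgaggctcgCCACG
Syvn1, 44 bases before the start, same strand: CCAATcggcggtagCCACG
Derl3, 156 bases before the start, opposite strand: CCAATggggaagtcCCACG

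Hsp90b1 carried the element at 2 places, on opposite strands. The related ERSE-II, ATTGG and CCACG separated by a single base, was found in 2 of the 30 genes, Herpud1 and Dnajb11, against 0.0365% of all promoters; the Dnajb11 site lies after the start. The core TGACGTGG of another element bound by Xbp1 and Atf6 was in 0 of the 30 genes and 0.676% of all promoters, and TGATGNAAT, a sequence bound by Atf4 with a C/EBP partner, was in 0 of the 30 and 0.965%. The half-site CCACG alone, which overlaps the full elements, was in 24 of the 30 genes and 32.8% of all promoters. The promoters of Hspa5, Calr and Derl3 are given whole, because these genes stood among the larger changes below; capitals mark the element, and in Calr and Derl3 it reads on the opposite strand.
Hspa5 promoter, chr2:34771840-34772139, plus strand: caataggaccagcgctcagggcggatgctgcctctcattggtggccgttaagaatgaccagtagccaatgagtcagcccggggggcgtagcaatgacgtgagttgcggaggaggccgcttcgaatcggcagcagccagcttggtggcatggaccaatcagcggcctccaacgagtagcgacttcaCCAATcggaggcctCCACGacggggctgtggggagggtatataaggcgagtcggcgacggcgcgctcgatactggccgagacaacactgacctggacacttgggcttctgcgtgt
Calr promoter, chr8:84846882-84847181, minus strand: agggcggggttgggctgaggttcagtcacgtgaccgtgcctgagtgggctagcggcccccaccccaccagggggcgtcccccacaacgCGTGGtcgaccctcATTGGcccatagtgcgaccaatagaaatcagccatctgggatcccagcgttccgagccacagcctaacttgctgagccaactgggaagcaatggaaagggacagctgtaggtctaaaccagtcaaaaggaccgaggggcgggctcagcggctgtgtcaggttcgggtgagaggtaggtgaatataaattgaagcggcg
Derl3 promoter, chr10:75893148-75893447, plus strand: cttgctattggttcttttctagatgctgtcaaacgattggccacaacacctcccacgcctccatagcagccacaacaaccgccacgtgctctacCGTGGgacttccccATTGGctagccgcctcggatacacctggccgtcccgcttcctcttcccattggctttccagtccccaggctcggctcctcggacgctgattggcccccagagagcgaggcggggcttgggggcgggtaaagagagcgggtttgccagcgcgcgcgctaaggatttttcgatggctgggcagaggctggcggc

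At 54 µg, NRCWE-043 and NRCWE-044 were each accompanied by higher messenger RNA of much of the folding machinery and of the translocon, while the sensors and transcription factors of the response were not called and 2 stress targets, Trib3 and Ppp1r15a, were lower. With NRCWE-043, 17 of the 35 genes rose, against 5.40% of all 25534 features tested, and 2 fell, against 4.93%. With NRCWE-044, 17 rose, against 3.94%, and 2 fell, against 2.06%. With NRCWE-045, 0 rose, against 0.290%, and 1, Trib3, fell, against 0.0352%. The count for NRCWE-045 changed with the arrays kept and with the fit. Without NRCWE-045 replicate 35, 5 genes were called, 4 of them higher: Sdf2l1 (2.14-fold, adjusted p = 0.0143), Pdia6 (a change of 0.64, adjusted p = 0.0365), Dnajb11 (0.53, adjusted p = 0.0419) and Hyou1 (0.44, adjusted p = 0.0457). Without control replicate 29, 4 genes were called, and with arrays weighted by their spread 8 were, 7 of them higher. The features called in the same fits numbered 149, 225 and 316 of 25534, against 83 with all arrays weighted equally. With slide as a random block 4 genes were called, Trib3 and, higher, Sdf2l1, Pdia6 (0.55, adjusted p = 0.0475) and Dnajb11 (0.46, adjusted p = 0.0474), and 270 features. Without any 1 of control replicates 2, 7, 15 and 30 or NRCWE-045 replicates 8, 28 and 32, 0 were called. A gene counts as called at a Benjamini-Hochberg adjusted p under 0.05 in limma over all features. The median change of the 35 genes was 0.38 with NRCWE-043, 0.36 with NRCWE-044 and 0.25 with NRCWE-045, while the median over all features was 0.01 in each. These counts depend on how dye bias was removed within an array: with median centring in place of loess, 7 of the 35 genes rose with NRCWE-043 and 1 with NRCWE-044 and none fell, and the called share of all features shrank with it, to 528 features (67.2% of them higher, against 52.2% of 2638 with loess) and 44 features (95.5% higher, against 65.7% of 1531). That centring put the median of all features with NRCWE-043 at 0.12, and the median change of the 35 genes was then 0.69 with NRCWE-043, 0.31 with NRCWE-044 and 0.38 with NRCWE-045. The calls that held in every setting tried and with every array left out were those of Hspa5, Sdf2l1 and Pdia6 with NRCWE-043 and of Sdf2l1 with NRCWE-044.

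At 18 µg, 0 of the 35 genes were called with any of the materials. The background was 4.25% of features with NRCWE-043, 0 with NRCWE-044 and 0 with NRCWE-045. Without adjustment, limma gave a p under 0.05 for 9 genes with NRCWE-043, for 1 with NRCWE-044 and for 2 with NRCWE-045, and for 4895, 2770 and 709 of all features. The median changes of the 35 genes were 0.11, 0.06 and -0.03. Leaving out 1 of control replicate 7 or NRCWE-043 replicates 20, 26 and 33 gave 1 call with NRCWE-043. Slide as a block made Edem1 a call at 18 µg of NRCWE-043 (0.59, adjusted p = 0.00569 with a fixed block, and 0.55, adjusted p = 0.00970 with a random block).

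Among the 9 genes with the full element, 6 were higher than control at 54 µg of NRCWE-043 and 6 at 54 µg of NRCWE-044. Dnajc3 and Syvn1 were called with neither material, Creld2 was called with NRCWE-044 alone and Canx with NRCWE-043 alone. Of the 21 genes with a promoter entry and no full element, 9 and 7 were higher, among them Sdf2l1, which had the largest change of all 35. A match is only a description of the letters in this window.

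**Figure D1:**
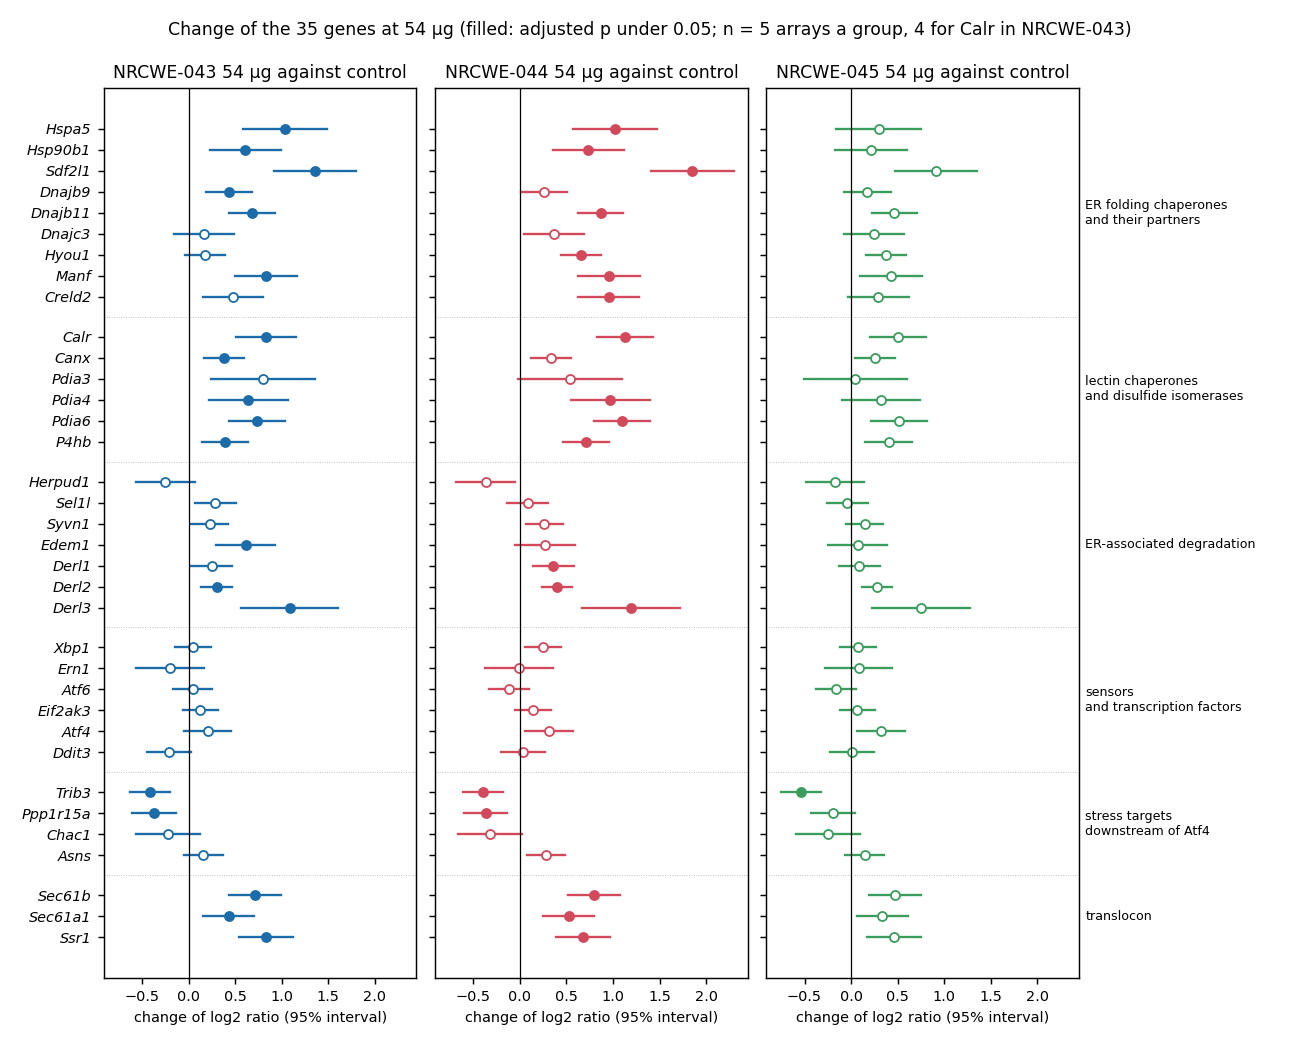
Change of the log2 ratio at 54 µg against control for the 35 genes, grouped by role, with 1 panel for each material; points are differences of group means, bars 95% intervals, and filled points passed an adjusted p of 0.05. In the first 2 panels most chaperones, isomerases and translocon genes lie to the right of 0 and Trib3 and Ppp1r15a to the left, and in the NRCWE-045 panel only Trib3 is filled.

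**Figure D2:**
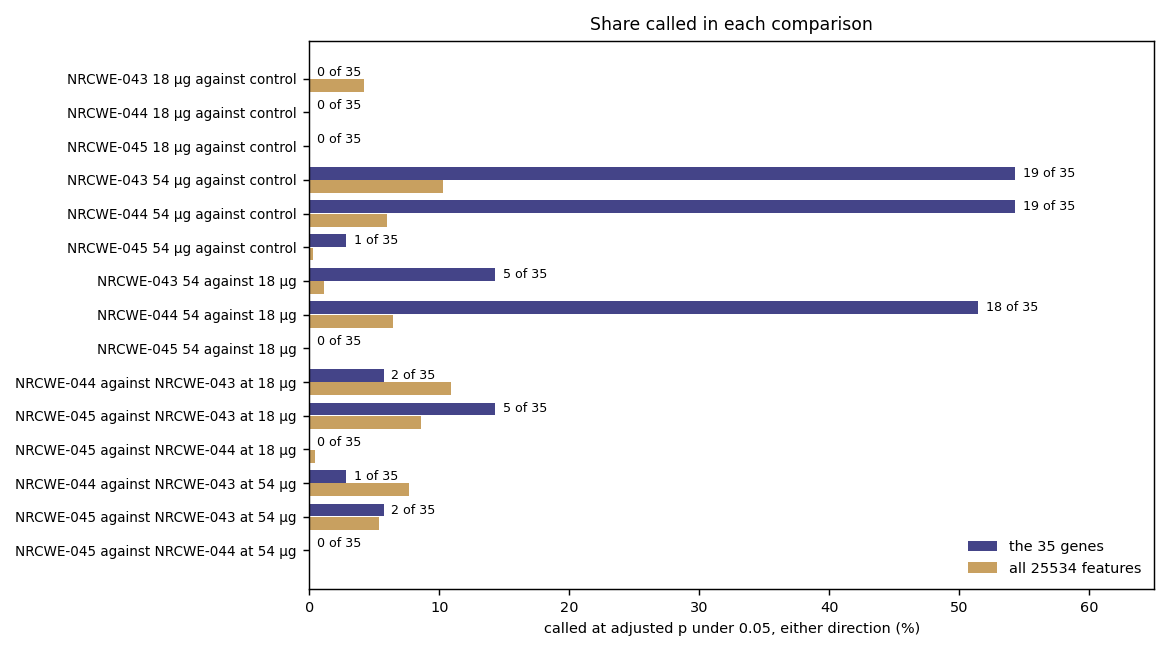
Share of the 35 genes and of all 25534 features called in either direction in each of the 15 comparisons, with the number of the 35 genes beside its bar. The share of the 35 genes is largest at 54 µg of NRCWE-043 and NRCWE-044 against control (19 of 35 each) and between the doses of NRCWE-044 (18 of 35).

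Of the 9 ER folding chaperones and their partners, 6 rose with NRCWE-043, 7 with NRCWE-044 and 0 with NRCWE-045. Their median changes at 54 µg were 0.61, 0.87 and 0.30, and all 9 changes were above 0 with each material. Hspa5, which encodes BiP, the ER Hsp70 chaperone that binds the sensors at rest, had log2 ratios of -0.02, -0.20, -0.82, -0.45 and -0.26 on the control arrays. At 54 µg they were 0.90, 0.38, 0.68, 0.66 and 0.79 with NRCWE-043 and 0.47, 0.79, 0.30, 0.90 and 0.87 with NRCWE-044. Every array of both groups lay above the highest control, at changes of 1.03 ± 0.22 (2.05-fold, adjusted p = 0.00237) and 1.02 ± 0.22 (2.03-fold, adjusted p = 0.00426). With 54 µg of NRCWE-045 the Hspa5 values were 0.07, 0.56, 0.18, -0.28 and -0.81, of which 2 lie within the control range and 3 above it. The change there was 0.30 ± 0.22 (95% interval -0.16 to 0.75, adjusted p = 0.783).

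At 18 µg the Hspa5 values were 0.56, 0.88, 0.08, -0.07 and -0.22 with NRCWE-043, with 3 of the 5 arrays above every control. They were -0.23, -0.19, -0.48, -0.53 and 0.74 with NRCWE-044, and -0.61, -0.62, -0.60, -0.58 and -0.99 with NRCWE-045. In the NRCWE-044 group replicate 23 stood alone at the top, and in the NRCWE-045 group replicate 27 stood alone at the bottom. The changes from control were 0.60 ± 0.22 (adjusted p = 0.125), 0.21 ± 0.22 and -0.33 ± 0.22.

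Sdf2l1 encodes a soluble ER protein that works with the Hsp40 co-chaperones of BiP; it and the other genes given below on every array, besides Hspa5, Xbp1, Atf4, Ddit3 and Trib3, were chosen for this after their values were seen. Its control values were -0.99, -1.52, -1.66, -0.70 and -0.89. At 54 µg they were 0.22, 0.28, 0.20, 0.28 and 0.06 with NRCWE-043 and 0.86, 0.61, 0.55, 0.56 and 0.94 with NRCWE-044. Neither group overlapped the controls, and the 2 groups did not overlap each other. The changes were 1.36 ± 0.22 (2.56-fold, adjusted p = 0.000113) and 1.85 ± 0.22 (3.61-fold, adjusted p = 9.51e-06). With NRCWE-045 the values spread from -0.97 to 0.34, and the change of 0.91 ± 0.22 had an adjusted p of 0.0517. With slide as a block it was called (0.97, adjusted p = 0.0466 with a fixed block, and 0.93, adjusted p = 0.0277 with a random block). At 18 µg the highest Sdf2l1 values were -0.07 with NRCWE-043, -0.23 with NRCWE-044 and -0.75 with NRCWE-045, so that the last lay within the control range.

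Hyou1 is the ER chaperone of the Hsp110 family that exchanges nucleotide on BiP. The control values were -0.15, -0.30, -0.12, 0.29 and 0.05, and those at 54 µg of NRCWE-043 were 0.14, 0.10, 0.34, -0.04 and 0.12. With NRCWE-044 they were 0.76, 0.40, 0.56, 0.60 and 0.74, above every control and every NRCWE-043 array. The change was 0.66 ± 0.11 with NRCWE-044 (adjusted p = 0.000199) and 0.18 ± 0.11 with NRCWE-043 (adjusted p = 0.325). With NRCWE-045 the values ran from 0.04 to 0.56, at a change of 0.37 ± 0.11 (adjusted p = 0.122). The Hyou1 probe was well above background on 4 of 5 control arrays.

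The other folding genes were given by their changes. Dnajb11, an Hsp40 co-chaperone of BiP, rose by 0.68 ± 0.12 with NRCWE-043 and 0.87 ± 0.12 with NRCWE-044. Manf, a small ER protein that is secreted under stress, rose by 0.83 ± 0.16 and 0.95 ± 0.16, and Hsp90b1, the ER Hsp90, by 0.61 ± 0.19 and 0.74 ± 0.19. Creld2, a secreted ER stress gene, rose with NRCWE-044 by 0.95 ± 0.16; with NRCWE-043 its change was 0.48 ± 0.16 (adjusted p = 0.0513). Dnajb9, another Hsp40 that binds Ire1, rose with NRCWE-043 by 0.43 ± 0.12 and its change with NRCWE-044 was 0.26 ± 0.12. Dnajc3, an Hsp40 of the ER lumen that also inhibits eIF2α kinases, was called with neither, at 0.17 ± 0.16 and 0.36 ± 0.16. At 54 µg of NRCWE-045, changes of Dnajb11, Manf, Hsp90b1, Creld2, Dnajb9 and Dnajc3 lay between 0.18 and 0.46, and for Dnajb11 all 5 arrays were at or above the highest control value.

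Some of these calls ended when single arrays were left out. For Hsp90b1 with NRCWE-043 (adjusted p = 0.0334 with every array) the call ended without any 1 of control replicates 15, 29 and 30 or treated replicates 3, 19 and 22. Changes were 0.49 to 0.69 over the arrays left out, with adjusted p up to 0.124. With NRCWE-044 the Hsp90b1 call ended without control replicate 15 (adjusted p = 0.0646). It also ended in 4 settings: median centring (adjusted p = 0.763), Cy5 alone (0.0874), and without the arrays of high heart muscle (0.056) or adipose markers (0.134). For Dnajb9 with NRCWE-043 the call ended without treated replicate 3 (change 0.34, adjusted p = 0.0774) and with slide as a fixed block (0.36, adjusted p = 0.104). That call ended in 6 settings, among them median centring, Cy5 alone and the mean over probes, and its change was as low as 0.23 over all settings. A dimmer Dnajb9 probe changed by 0.25 (adjusted p = 0.340 in a limma fit of single probes). The calls of Hspa5, Sdf2l1, Dnajb11 and Manf with both materials, and of Hyou1 and Creld2 with NRCWE-044, were kept whichever array was left out. A second, dim Dnajb11 probe for another transcript, well above background on 6 of the 35 arrays, changed by 0.06 and 0.10.

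**Figure D3:**
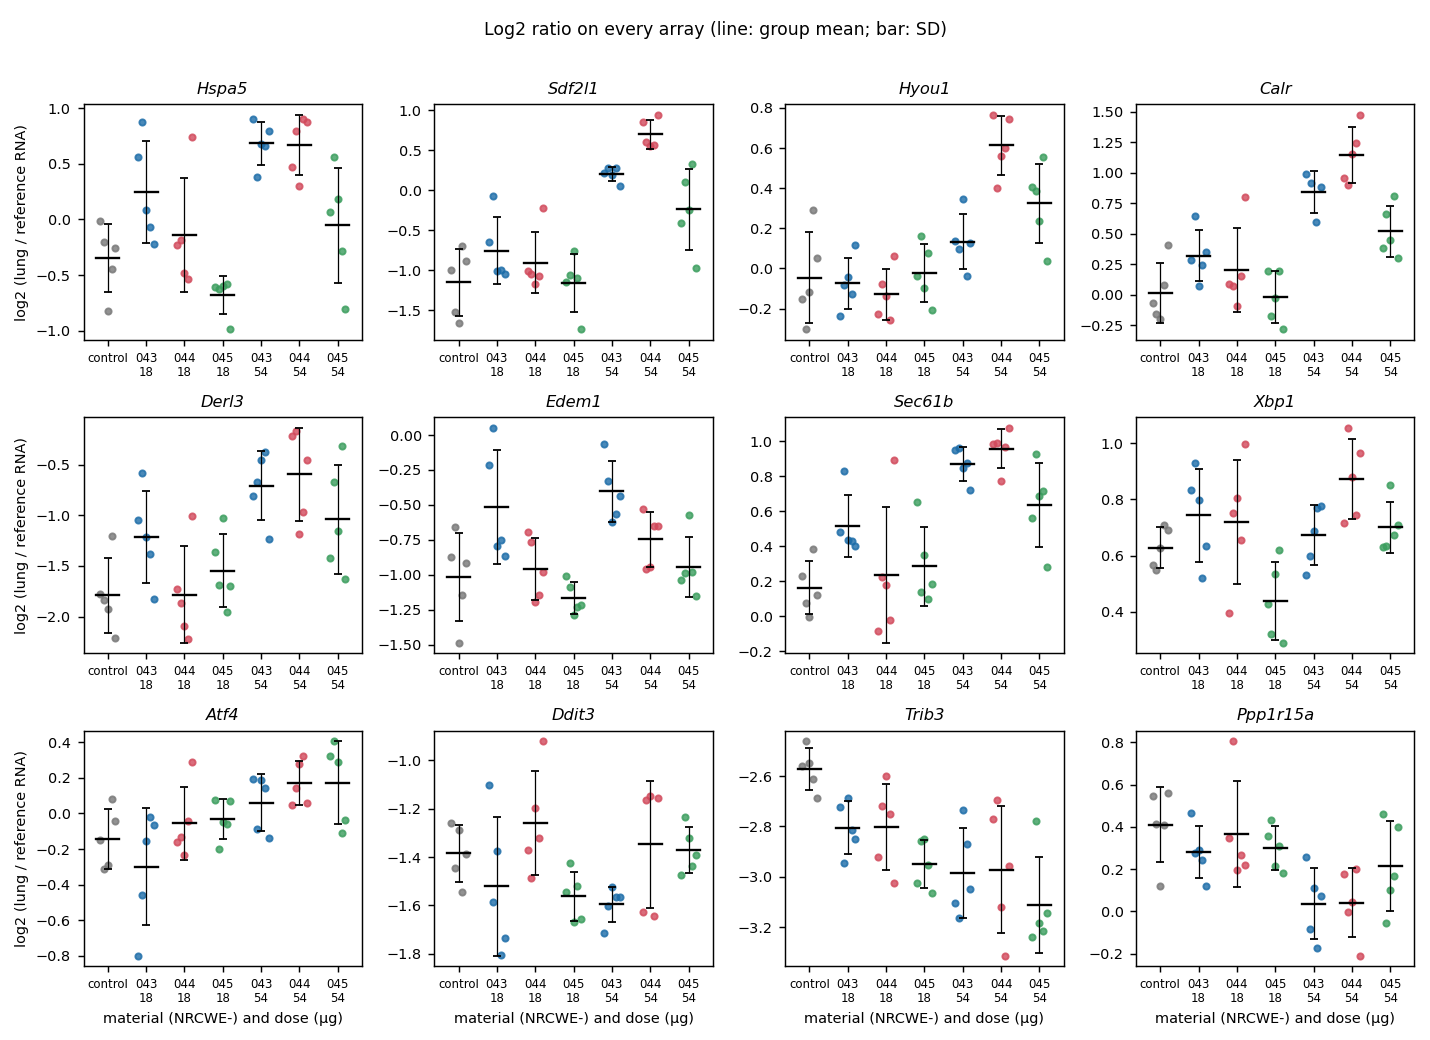
Log2 ratio of lung to reference RNA on every array for 12 of the genes, by group, with the material and the dose in µg on the horizontal axis; lines are group means and bars SD. The 5 arrays at 54 µg of NRCWE-043 and of NRCWE-044 lie above the controls for Hspa5 and Sdf2l1, Trib3 lies below them in all 3 groups at 54 µg, and the NRCWE-044 group at 18 µg holds a single high array for Hspa5, Calr and Sec61b.

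Of the 6 lectin chaperones and disulfide isomerases, 5 rose with NRCWE-043, 4 with NRCWE-044 and 0 with NRCWE-045, at median changes of 0.69, 0.84 and 0.36. Calr encodes calreticulin, which binds glycoproteins and calcium in the ER. Its control values were -0.07, -0.16, -0.19, 0.08 and 0.41, and at 54 µg it read 0.99, 0.92, 0.59 and 0.88 with NRCWE-043, where replicate 16 had no usable spot and the fit used 4 arrays. With NRCWE-044 it read 0.96, 0.90, 1.16, 1.24 and 1.47. Both groups lay wholly above the controls, at changes of 0.83 ± 0.16 (1.78-fold, adjusted p = 0.000674) and 1.13 ± 0.15 (2.19-fold, adjusted p = 3.30e-05). With NRCWE-045 Calr ranged from 0.30 to 0.81, with all 5 arrays under the lowest of the NRCWE-044 group and 2 of them under the highest control, and the change was 0.51 ± 0.15 (adjusted p = 0.130).

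Pdia6, a disulfide isomerase that also acts on Ire1, rose by 0.73 ± 0.15 (1.66-fold) with NRCWE-043 and by 2.15-fold with NRCWE-044; with NRCWE-045 the change was 0.52 ± 0.15 (adjusted p = 0.123). Its other probe changed by 0.72, 0.97 and 0.56, and in a fit of single probes the last of these had an adjusted p of 0.0417. Pdia4, an isomerase of several thioredoxin-like domains, rose by 0.64 ± 0.21 and 0.97 ± 0.21, and P4hb, the archetypal isomerase PDI, by 0.39 ± 0.12 and 0.71 ± 0.12. Canx, the membrane-bound relative of calreticulin, rose with NRCWE-043 by 0.38 ± 0.11, and with NRCWE-044 its change was 0.33 ± 0.11 (adjusted p = 0.0555). Pdia3, the isomerase that works with both lectin chaperones, was called with neither: its changes were 0.80 ± 0.27 (adjusted p = 0.0555) and 0.54 ± 0.27, and its control values spread from -1.27 to 0.11.

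The calls of Calr and Pdia6 with both materials and of Pdia4 and P4hb with NRCWE-044 were kept whichever array was left out. With NRCWE-043, Pdia4 lost its call without any 1 of control replicates 15, 29 and 30 or treated replicates 3, 9, 16 and 22 (changes 0.51 to 0.71, adjusted p up to 0.140). P4hb lost it without control replicates 7 and 29, singly, or treated replicates 3, 9, 16 and 22 (changes 0.29 to 0.44, adjusted p up to 0.122), and with slide as a fixed block (0.36, adjusted p = 0.0700). Canx lost it without control replicate 15 or treated replicates 3 and 9 (changes 0.34 to 0.42, adjusted p up to 0.0546).

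Of the 7 genes of ER-associated degradation, which draws misfolded proteins out to the proteasome, 3 rose with NRCWE-043, 3 with NRCWE-044 and 0 with NRCWE-045. Derl3, a derlin of the ER membrane that secretory cells express, had control values of -1.78, -1.84, -1.93, -1.20 and -2.21. At 54 µg it read -0.81, -0.67, -0.45, -0.37 and -1.24 with NRCWE-043, with 1 array below the highest control, and -0.21, -0.16, -1.18, -0.97 and -0.45 with NRCWE-044, with none below it. The changes were 1.08 ± 0.26 (2.12-fold, adjusted p = 0.00561) and 1.20 ± 0.26 (2.29-fold, adjusted p = 0.00377), and 0.75 ± 0.26 with NRCWE-045 (adjusted p = 0.228), where values ran from -1.63 to -0.31. Derl2, its relative, rose by 0.30 ± 0.08 and 0.40 ± 0.08 on its brightest probe, while its dimmest probe changed by -0.04 and -0.01. The Derl2 probe between them changed by 0.21 with NRCWE-043 and by 0.42 with NRCWE-044 (adjusted p = 0.202 and 0.0082 in a limma fit of single probes). With the mean over probes the NRCWE-043 call of Derl2 ended, at a change of 0.16. Derl1 rose with NRCWE-044 by 0.36 ± 0.11 on its brightest probe, and with NRCWE-043 its change was 0.25 ± 0.11. Its other probe, well above background on all 35 arrays, changed by 0.15 with NRCWE-044 (adjusted p = 0.577 in a limma fit of single probes) and by 0.22 with NRCWE-043. The NRCWE-044 call of Derl1 ended without any 1 of control replicates 7, 15 and 29 or treated replicates 4, 18, 24 and 34 (changes 0.33 to 0.40, adjusted p up to 0.121).

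Edem1, a lectin-like protein that marks glycoproteins for degradation, was called with NRCWE-043, and with NRCWE-044 only when slide entered as a fixed block (0.40, adjusted p = 0.0317). The control values were -0.87, -0.66, -1.48, -1.14 and -0.92. With 54 µg of NRCWE-043 they were -0.06, -0.33, -0.62, -0.56 and -0.44, all above the controls, at a change of 0.61 ± 0.16 (1.53-fold, adjusted p = 0.0103). With NRCWE-044 they were -0.53, -0.96, -0.95, -0.65 and -0.65 and with NRCWE-045 -1.03, -0.98, -0.57, -0.98 and -1.15, both overlapping the controls, at changes of 0.27 ± 0.16 and 0.07 ± 0.16. The remaining members of this role were not called. Sel1l and Syvn1, the adaptor and the ubiquitin ligase of the degradation complex, changed by 0.29 ± 0.11 and 0.23 ± 0.10 with NRCWE-043 and by 0.08 ± 0.11 and 0.26 ± 0.10 with NRCWE-044. Herpud1, a scaffold of that complex and a target of both Atf6 and Atf4, had negative changes: -0.25 ± 0.15, -0.37 ± 0.15 and -0.17 ± 0.15 at 54 µg of NRCWE-043, of NRCWE-044 and then of NRCWE-045.

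All 3 translocon genes, which carry new proteins into the ER, rose with NRCWE-043 and with NRCWE-044, and 0 rose with NRCWE-045. Sec61b, a small subunit of the channel, had control values of 0.23, 0.07, -0.01, 0.39 and 0.12. It read 0.95, 0.96, 0.85, 0.88 and 0.72 at 54 µg of NRCWE-043 and 0.98, 0.99, 0.77, 0.97 and 1.08 at 54 µg of NRCWE-044, in both groups above all controls. The changes were 0.71 ± 0.14 (1.64-fold, adjusted p = 0.000763) and 0.80 ± 0.14 (1.74-fold, adjusted p = 0.000434), against 0.47 ± 0.14 with NRCWE-045 (adjusted p = 0.124). Its other probe changed by 0.32 and 0.48 with NRCWE-043 and NRCWE-044. Sec61a1, the channel itself, rose by 0.43 ± 0.13 and 0.53 ± 0.13, and Ssr1, a translocon-associated protein, by 0.83 ± 0.14 and 0.68 ± 0.14 on its brightest probe. Its 2 dimmer probes changed by 0.15 and 0.14 with NRCWE-043 and by 0.29 and -0.14 with NRCWE-044. Both were well above background on all 35 arrays and were not called in a limma fit of single probes (adjusted p 0.280 to 0.707). With the mean over probes the Ssr1 call was kept with NRCWE-043 (0.37) and ended with NRCWE-044 (0.28). The NRCWE-043 call of Sec61a1 ended without any 1 of control replicates 2, 7, 15 and 30 or treated replicates 3, 9, 16 and 19 (changes 0.39 to 0.48, adjusted p up to 0.112) and with slide as a fixed block (0.31, adjusted p = 0.152), and the NRCWE-044 call without treated replicate 34 (adjusted p = 0.0527).

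None of the 6 sensors and transcription factors, Ern1, Eif2ak3, Atf6, Xbp1, Atf4 and Ddit3, was called against control with any material at either dose, and their median changes at 54 µg were 0.04, 0.09 and 0.07. Xbp1 had control values of 0.57, 0.55, 0.63, 0.71 and 0.69. At 54 µg it read 0.53, 0.60, 0.69, 0.77 and 0.78 with NRCWE-043, 0.72, 1.05, 0.88, 0.74 and 0.97 with NRCWE-044, and 0.63, 0.63, 0.85, 0.67 and 0.71 with NRCWE-045. All 5 NRCWE-044 arrays lay above the highest control, and the change of 0.24 ± 0.09 had an adjusted p of 0.131; the others were 0.05 ± 0.09 and 0.07 ± 0.09. At 18 µg the Xbp1 values were 0.83, 0.93, 0.80, 0.52 and 0.63 with NRCWE-043, 0.40, 0.75, 0.81, 0.65 and 1.00 with NRCWE-044, and 0.43, 0.32, 0.54, 0.62 and 0.29 with NRCWE-045, where 4 of 5 arrays were under the lowest control.

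Atf4, the transcription factor of the Perk branch, which is governed mainly through translation, had control values of -0.15, -0.31, -0.29, 0.08 and -0.04. At 54 µg it read 0.19, -0.09, 0.19, 0.14 and -0.14 with NRCWE-043, 0.05, 0.14, 0.28, 0.32 and 0.06 with NRCWE-044, and 0.32, 0.40, 0.29, -0.11 and -0.04 with NRCWE-045. All 3 groups overlapped the controls; the changes were 0.20 ± 0.13, 0.31 ± 0.13 and 0.32 ± 0.13, with adjusted p of 0.360, 0.150 and 0.350. At 18 µg it read -0.80, -0.46, -0.16, -0.02 and -0.06 with NRCWE-043, -0.16, -0.13, -0.23, -0.04 and 0.29 with NRCWE-044, and 0.07, -0.20, -0.05, -0.06 and 0.07 with NRCWE-045. The lowest value of all 35 arrays was that of NRCWE-043 replicate 5.

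Ddit3, which encodes the death-associated factor CHOP, had control values of -1.26, -1.45, -1.29, -1.54 and -1.39. At 54 µg the values were -1.71, -1.60, -1.52, -1.57 and -1.57 with NRCWE-043, -1.63, -1.16, -1.15, -1.64 and -1.16 with NRCWE-044, and -1.47, -1.24, -1.32, -1.44 and -1.39 with NRCWE-045. With NRCWE-043, 4 of 5 arrays lay below the lowest control; with NRCWE-044, 2 lay below the control range and 3 above it. The changes were -0.21 ± 0.12 (95% interval -0.45 to 0.03), 0.04 ± 0.12 (-0.20 to 0.27) and 0.01 ± 0.12 (-0.22 to 0.25). At 18 µg Ddit3 read -1.10, -1.59, -1.38, -1.81 and -1.73 with NRCWE-043, -1.37, -1.49, -1.20, -1.32 and -0.92 with NRCWE-044, and -1.55, -1.42, -1.67, -1.52 and -1.66 with NRCWE-045. The sensors Ern1, Eif2ak3 and Atf6 changed by -0.20 to 0.14 at 54 µg over the 3 materials, each overlapping the controls.

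Of the 4 stress targets downstream of Atf4, Trib3 fell with all 3 materials at 54 µg, the only member of the 35 to be called with each. Trib3 is a pseudokinase induced by Atf4 and CHOP that restrains Akt signalling. Its control values were -2.56, -2.46, -2.55, -2.61 and -2.69. At 54 µg they were -3.10, -3.16, -2.74, -2.87 and -3.05 with NRCWE-043, -2.77, -2.70, -3.12, -3.31 and -2.96 with NRCWE-044, and -3.24, -2.78, -3.18, -3.21 and -3.14 with NRCWE-045. All 15 arrays lay below every control. The falls were 0.41 ± 0.11 (1.33-fold lower, adjusted p = 0.0106), 0.40 ± 0.11 (1.32-fold lower, adjusted p = 0.0197) and 0.54 ± 0.11 (1.45-fold lower, adjusted p = 0.0187).

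At 18 µg Trib3 read -2.72, -2.95, -2.69, -2.81 and -2.85 with NRCWE-043, -2.92, -2.72, -2.60, -2.75 and -3.03 with NRCWE-044, and -3.03, -2.86, -2.85, -2.95 and -3.06 with NRCWE-045. The NRCWE-044 group overlapped the controls, the nearest NRCWE-043 array touched the lowest control at this rounding, and the NRCWE-045 group lay clear below. The changes were -0.23 ± 0.11, -0.23 ± 0.11 and -0.38 ± 0.11, with adjusted p of 0.224, 0.440 and 1.00. With median centring in place of loess the change at 54 µg of NRCWE-043 was -0.05 (adjusted p = 0.957), and all 3 calls of Trib3 ended, the others at -0.43 and -0.40. The NRCWE-043 call was kept whichever single array was left out, and ended without the 8 arrays of high adipose markers described below (-0.39, adjusted p = 0.0636). Besides median centring, the NRCWE-044 call ended in 4 other settings (adjusted p 0.0514 to 0.102 there) and the NRCWE-045 call in 5 (0.0561 to 0.0653). The NRCWE-044 call also ended without control replicate 7 or treated replicates 24 and 31, singly (falls of 0.31 to 0.47, adjusted p up to 0.0650), and the NRCWE-045 call without control replicates 2, 7, 15 and 30 or treated replicates 8, 28 and 32 (falls of 0.51 to 0.62, adjusted p up to 0.0875).

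Ppp1r15a, which encodes Gadd34, the phosphatase subunit that ends the translational block, had control values of 0.55, 0.41, 0.12, 0.41 and 0.56. It read 0.26, -0.08, 0.11, -0.17 and 0.07 at 54 µg of NRCWE-043 and 0.17, -0.00, 0.04, 0.20 and -0.21 with NRCWE-044, overlapping the controls through control replicate 15. It fell by 0.37 ± 0.11 with each (adjusted p = 0.0313 and 0.0476), and with NRCWE-045 its change was -0.19 ± 0.11 (adjusted p = 0.661). Both calls ended when single arrays were left out: with NRCWE-043 without control replicates 2 and 30 or treated replicates 9 and 19 (adjusted p up to 0.108), and with NRCWE-044 without 8 of the 10 arrays (adjusted p up to 0.178). With median centring in place of loess the NRCWE-043 change of Ppp1r15a was 0.01. Chac1, which degrades glutathione, changed by -0.22 ± 0.17, -0.32 ± 0.17 and -0.24 ± 0.17, and Asns, asparagine synthetase, by 0.16 ± 0.10, 0.28 ± 0.10 and 0.15 ± 0.10, with no call.

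**Figure D4:**
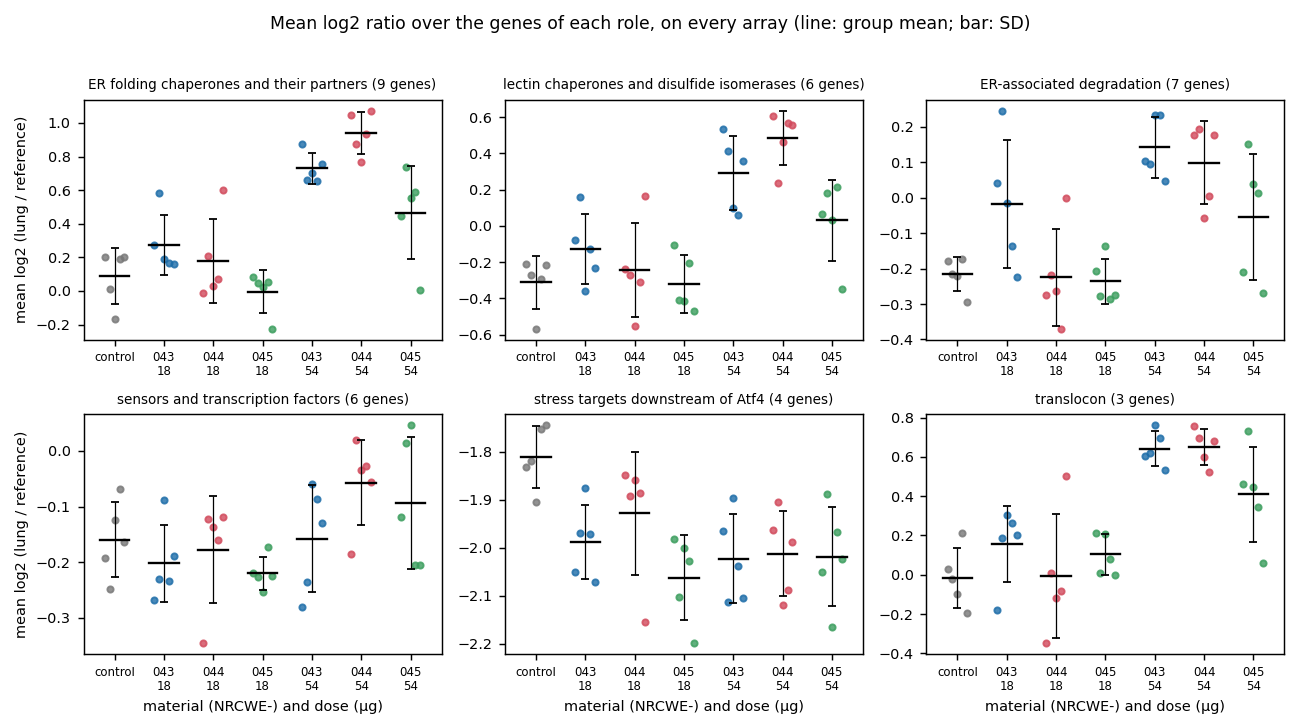
Mean log2 ratio over the genes of each role on every array, by group, with group means as lines and SD as bars. For the 9 folding chaperones the arrays at 54 µg of NRCWE-043 (0.65 to 0.87) and NRCWE-044 (0.77 to 1.07) lie above all controls (-0.17 to 0.20), and those of NRCWE-045 run from 0.01 to 0.74.

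The dose steps compared 54 with 18 µg within a material. A step that was not called does not show where a difference from control lay. Of the 35 steps, 30 were above 0 with NRCWE-043, 29 with NRCWE-044 and 30 with NRCWE-045. For NRCWE-044, 18 of the 35 genes were higher at 54 µg than at 18 µg, against 4.82% of all features. Among them were Sdf2l1 (1.60 ± 0.22, adjusted p = 2.43e-05), Hyou1 (0.74 ± 0.11), Calr (0.94 ± 0.15), Derl3 (1.19 ± 0.26) and the sensor gene Eif2ak3 (0.33 ± 0.09, adjusted p = 0.0272). For NRCWE-043, 5 genes were higher at 54 µg, against 0.920%: Sdf2l1 (0.96 ± 0.22), Manf (0.82 ± 0.16), Ssr1 (0.60 ± 0.14), Dnajb11 (0.55 ± 0.12) and P4hb (0.49 ± 0.12). For NRCWE-045, 0 genes were called, against 0, although 16 of the 35 had an unadjusted p under 0.05 in limma, as did 972 of all features. Its largest dose step was that of Sdf2l1, 0.92 ± 0.22 (adjusted p = 0.941).

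Single arrays at 18 µg bear on these steps. In the NRCWE-044 group replicate 23 was the highest array for Hspa5, Sdf2l1, Calr (0.80 against 0.16 or less on the others), Dnajb11 (0.66) and Sec61b (0.89). Without this array the steps were larger, at 1.03 against 0.81 for Hspa5, 1.77 against 1.60 for Sdf2l1 and 1.09 against 0.94 for Calr. Among the NRCWE-044 calls given below as lost, only that of Eif2ak3 ended without it. Of the 18 calls for NRCWE-044, 13 were kept whichever array was left out; those of Hspa5, Hsp90b1, Canx, Pdia4 and Eif2ak3 were not (adjusted p up to 0.0720, 0.102, 0.0509, 0.0567 and 0.0805). The Hspa5 call ended without 18 µg replicates 17 and 21 or 54 µg replicates 18, 31 and 34, that of Hsp90b1 without 18 µg replicates 6, 17 and 21 or 54 µg replicates 4, 31 and 34, and that of Eif2ak3 without 18 µg replicates 21 and 23 or 54 µg replicates 4, 18 and 31. That of Canx ended without 54 µg replicate 31, and that of Pdia4 without 18 µg replicate 17 or 54 µg replicate 4. Of the 5 calls for NRCWE-043, 0 were kept throughout. Without 18 µg replicate 5 all 5 were lost (0 called), and 1 to 3 were called without 54 µg replicates 9, 16, 19 or 22; Manf was lost without replicate 5 alone (adjusted p = 0.0765), Dnajb11 also without 54 µg replicate 19 (up to 0.152), and Sdf2l1 without 54 µg replicates 9, 16 and 19 (adjusted p up to 0.0770). Ssr1 was lost without 18 µg replicate 10 or 54 µg replicates 16, 19 and 22 (up to 0.199) and P4hb without any 1 of 7 arrays (up to 0.217).

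The materials were compared directly at matched doses, in 3 pairs at each of 2 doses, with p-values adjusted over all features within a pair. At 54 µg, NRCWE-044 against NRCWE-043 gave 1 member that was higher, against 5.43% of all features: Hyou1, at 0.48 ± 0.11 (1.39-fold, adjusted p = 0.00225), kept whichever array was left out; without NRCWE-044 replicate 24 the count was 2. The Hyou1 difference was 0.21 (adjusted p = 0.461) from the Cy5 channel alone, 0.32 (0.301) without the arrays of high adipose markers and 0.45 (0.0917) with median centring, and was not called in these settings. NRCWE-045 against NRCWE-043 gave 2 that were lower, against 1.54%: Hspa5, by -0.74 ± 0.22 (adjusted p = 0.0435), and Edem1, by -0.54 ± 0.16 (adjusted p = 0.0342). Each of these 2 calls ended without any 1 of 7 of the 10 arrays, for Hspa5 with changes of -0.89 to -0.55 and adjusted p up to 0.202, for Edem1 with changes of -0.63 to -0.46 and adjusted p up to 0.127. The Hspa5 call also ended with slide as a fixed block (-0.63, adjusted p = 0.192) and as a random block (-0.70, adjusted p = 0.0577). The arrays common to both were NRCWE-043 replicates 3 and 22 and NRCWE-045 replicates 8, 32 and 35.

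NRCWE-045 against NRCWE-044 at 54 µg gave 0 of the 35 genes, against 0 of all features, with an unadjusted p under 0.05 in limma for 13 of the 35 and for 1548 of 25534. The difference for Sdf2l1 was -0.94 ± 0.22 (95% interval -1.38 to -0.50, adjusted p = 0.109), that for Hspa5 -0.72 ± 0.22 (-1.18 to -0.27, adjusted p = 0.418) and that for Calr -0.62 ± 0.15 (-0.93 to -0.32, adjusted p = 0.129). For NRCWE-044 against NRCWE-043 the intervals were -0.47 to 0.44 for Hspa5, 0.06 to 0.94 for Sdf2l1 and -0.20 to 0.23 for Trib3. The comparisons with control share the same 5 control arrays, so their values stand side by side and were not correlated.

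At 18 µg, 5 genes were lower with NRCWE-045 than with NRCWE-043, against 2.56% of features: Hspa5 (-0.93 ± 0.22, adjusted p = 0.00606), Edem1 (-0.65 ± 0.16), Sel1l (-0.46 ± 0.11), Atf6 (-0.42 ± 0.11) and Xbp1 (-0.30 ± 0.09, adjusted p = 0.0392). For Hspa5, Edem1, Sel1l and Atf6 no array of the NRCWE-045 group reached the lowest of the NRCWE-043 group, and these 4 calls were kept whichever array was left out. How many of all features were separated in this way was not counted, here or in the other comparisons. That of Xbp1 ended without NRCWE-043 replicates 5, 10 and 20 or NRCWE-045 replicates 1, 12 and 27 (adjusted p up to 0.136). With NRCWE-044 against NRCWE-043, 2 genes were lower, against 5.46%: Canx (-0.32 ± 0.11, adjusted p = 0.0480) and Sel1l (-0.33 ± 0.11, adjusted p = 0.0470); each of these calls ended without any 1 of 7 arrays (adjusted p up to 0.155 and 0.127), among them NRCWE-043 replicates 5 and 10 and NRCWE-044 replicates 6, 11, 17 and 21. With NRCWE-045 against NRCWE-044, 0 were called, against 0.454%.

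Other genes of the same pathways, from a list of 101 of which 99 were tested, were described by counts. At 54 µg of NRCWE-043, 24 rose and 2 fell, against 5.40% and 4.93% of all features. With NRCWE-044, 26 rose and 2 fell, against 3.94% and 2.06%, and with NRCWE-045, 3 rose and 2 fell, against 0.290% and 0.0352%. At 18 µg, 5 rose with NRCWE-043, against 1.38%, and 0 were called with the others, against 0. The smallest adjusted p among the risers were those of Spcs3, a signal peptidase subunit (0.95 ± 0.14), Eif2ak2, the double-stranded RNA kinase PKR (0.67 ± 0.12), and Tram1, a translocon protein (0.58 ± 0.10), with NRCWE-043. With NRCWE-044 they were those of Eif2ak2 (0.88 ± 0.12), Sec23b, a coat protein of ER export vesicles (0.55 ± 0.08), and Rpn1, a subunit of the glycosylating enzyme (0.79 ± 0.12). With NRCWE-045 they were those of Atf3, a stress-induced transcription factor (0.81 ± 0.16, adjusted p = 0.0187), Sec23b (0.40 ± 0.08) and Eif2ak2 (0.55 ± 0.12). Vldlr, a lipoprotein receptor induced by Atf4, fell with each material, by 0.47 ± 0.12, 0.68 ± 0.12 and 0.61 ± 0.12. Nupr1, a stress factor downstream of Atf4, fell with NRCWE-043 (0.78 ± 0.21), and Bbc3, which encodes the death protein Puma, with NRCWE-044 (0.60 ± 0.12) and NRCWE-045 (0.53 ± 0.12).

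In whole lung, more cells of a type and more RNA of a gene per cell cannot be told apart. Marker genes of the cell types that carry much secretory work or that enter inflamed lung were read on the same arrays. Lung itself was identified by alveolar type 2 markers, whose mean log2 ratio was 5.04 to 6.20 over all arrays, with 0 of 9 called at 54 µg of any material. Of 11 neutrophil markers, 6 rose and 1 fell with NRCWE-043, 2 rose with NRCWE-044 and 0 were called with NRCWE-045; among 11 monocyte and interstitial macrophage markers the counts were 4 risers and 3 fallers with NRCWE-043, 4 risers with NRCWE-044 and 0 calls with NRCWE-045. Of 12 alveolar macrophage markers 3 fell with NRCWE-043, and 3 rose and 1 fell with NRCWE-044. Of 6 club cell markers, the secretory cells of the small airway, 4 fell with NRCWE-043 and 1 with NRCWE-044. Of 11 plasma cell and B cell markers, 1 fell with NRCWE-043 and 0 were called with the other materials, their mean log2 ratio running from -1.23 to -0.43 in controls, -1.17 to 0.16 with NRCWE-043, -1.38 to -0.35 with NRCWE-044 and -1.04 to -0.39 with NRCWE-045 at 54 µg. The part of these cells in the changes of the 35 genes was not tested.

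Some arrays carried markers of tissue beside the lung parenchyma. The mean log2 ratio of 8 goblet and secretory markers was above 3 on 6 arrays: control replicate 2 (3.84), NRCWE-043 54 µg replicates 16 and 19 (3.11 and 3.17), NRCWE-044 18 µg replicate 23 (5.25) and NRCWE-044 54 µg replicates 4 and 18 (5.49 and 3.03), against a median of 1.28 in controls. Without these 6 arrays, an alternative chosen after the data were seen, 11 of the 35 genes rose and 1 fell at 54 µg of NRCWE-043, and 14 rose and 1 fell with NRCWE-044; Derl3 was among those lost with both. Without the 9 arrays above 2 for heart muscle markers, 9 rose and 1 fell, and 13 rose and 1 fell; without the 8 arrays above 2 for adipose markers, 10 rose with NRCWE-043 and 12 with NRCWE-044, and 0 fell. All features called in these reduced fits numbered 978, 1308 and 1285 of 25534 with NRCWE-043, against 2638 with every array, and 755, 616 and 376 with NRCWE-044, against 1531. The 8 adipose-high arrays all belonged to NRCWE-043 (18 µg replicate 26, 54 µg replicates 9 and 19) and NRCWE-044 (18 µg replicates 6, 11 and 23, 54 µg replicates 4 and 34), and none to the control or NRCWE-045 groups. The median change of the 7 adipose markers at 54 µg was 0.61 with NRCWE-043, 1.17 with NRCWE-044 and -0.39 with NRCWE-045, with 0 called. The part of these tissues in the changes of the 35 genes was not tested beyond these counts. The median change of the 35 genes under these 3 choices was 0.36 to 0.40 with NRCWE-043 and 0.37 to 0.43 with NRCWE-044. Slides held several groups, and within the slides that held both a control and a treated array the change at 54 µg ran from 1.47 to 1.89 for Sdf2l1 with NRCWE-043 (2 slides), from 1.45 to 2.26 with NRCWE-044 (3 slides), and from 0.46 to 1.76 with NRCWE-045 (4 slides). For Hspa5 it ran from 1.01 to 1.49, from 0.59 to 1.61 and from -0.02 to 1.39, and for Trib3 from -0.59 to -0.26, from -0.63 to -0.15 and from -0.73 to -0.23.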

How the data were processed

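Lung RNA (Cy5) of 35 mouse samples and a common reference RNA (Cy3) were hybridised to 2-colour Agilent arrays, 5 in each of 7 groups. The scanner intensity of each spot was deposited as extracted with Agilent Feature Extraction 11.0.1.1, per the file headers, with no further normalization. A table of log2 ratios per probe was deposited by the authors with its method not given in the sources used here. It served as an alternative, ran in the same direction and correlated with background-unsubtracted loess ratios of the same arrays at 0.994 to 1.00 (columns' medians -0.04 to 0.02). With these ratios the calls of Pdia4 at 54 µg of NRCWE-043 and of Derl1 and Ppp1r15a at 54 µg of NRCWE-044 ended. So did the NRCWE-044 dose step of Eif2ak3. Between materials, Edem1 (NRCWE-045 against NRCWE-043 at 54 µg) and Sel1l (NRCWE-044 against NRCWE-043 at 18 µg) also lost their calls.

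Median signals were corrected with normexp (offset 50) and loess within arrays, leaving out control and flagged spots, in limma 3.58.1 (R 4.3.3). Of 55681 probes, 34326 passed the filter (Cy5 well above background on 3 or more arrays of some group) and were tested, as 25534 features with 1 probe, the brightest, for a gene; 27235 probes carried a gene symbol through RefSeq accessions. The share of probes above background was 42.8% to 69.3% per array, and the number of arrays limits the precision. All 35 arrays entered a linear model with empirical Bayes variances, and p-values of each of 15 comparisons were adjusted by the Benjamini-Hochberg method over all features. The steps were tested on simulated data. Slide was tried as a block (7 slides, scanned on 6 days; correlation of arrays within a slide 0.186).

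Values on every array were given for Hspa5, Xbp1, Atf4, Ddit3 and any member called in at least 3 of the 6 comparisons with control (Trib3); the others so shown were chosen after their values were seen. Other pathway genes were named by the 3 smallest adjusted p in each direction at 54 µg. The 35 genes, roles, marker lists and tests were chosen with earlier results of these data known. Alternatives were other background, normalization, filter, probe, channel, slide and variance choices, each array left out in turn, and, chosen after seeing the data, arrays with high goblet and secretory, heart muscle or adipose markers left out. Promoters are RefSeq's on GRCm38.p6; the genes without an entry are Hyou1, Derl1, Sec61a1, Manf and Atf6.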

Additional observations from a re-analysis of the deposited data

Results flagged for a closer look

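Among 84 combinations of a group with a gene given on every array, 7 held an array that stood apart by Dixon's criterion. Each had 5 arrays, save 4 for Calr at 54 µg of NRCWE-043. Chance gives about 1 in 20 for a single combination. The combinations share the same arrays and are not independent, so their number cannot be weighed against that rate. In the NRCWE-044 group at 18 µg, replicate 23 was high for Hspa5 (0.74, the others -0.53 to -0.19), Sdf2l1 (-0.23, the others -1.17 to -1.01) and Calr (0.80, the others -0.09 to 0.16); the goblet and secretory marker mean of this array was 5.25. In the same group replicate 11 was high for Ppp1r15a (0.81, the others 0.20 to 0.35). In the NRCWE-043 group at 18 µg, replicate 10 was high for Sec61b (0.83, the others 0.40 to 0.48). In the NRCWE-045 groups, replicate 27 at 18 µg was low for Hspa5 (-0.99, the others -0.62 to -0.58), and replicate 14 at 54 µg was the least low for Trib3 (-2.78, the others -3.24 to -3.14).

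Differences between materials at 1 dose passed the fit's test for 10 gene and pair combinations. At 54 µg, Hyou1 was higher with NRCWE-044 than with NRCWE-043 (0.48), 1 of 35 genes against 5.43% of all features. Hspa5 and Edem1 were lower with NRCWE-045 than with NRCWE-043 (-0.74 and -0.54), 2 of 35 against 1.54%. At 18 µg, NRCWE-045 against NRCWE-043 gave lower Hspa5 (-0.93), Edem1 (-0.65), Sel1l (-0.46), Atf6 (-0.42) and Xbp1 (-0.30), 5 of 35 against 2.56%. NRCWE-044 against NRCWE-043 gave lower Sel1l (-0.33) and Canx (-0.32), 2 of 35 against 5.46%. In the opposite direction 0 of the 35 were called in these pairs. The shares of all features there were 2.20% and 3.85% at 54 µg and 6.00% and 5.42% at 18 µg, in the order given.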

How the results depend on the processing

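The called changes of the 35 genes kept their direction in every setting tried except 1: with median centring in place of loess, the change of Ppp1r15a at 54 µg of NRCWE-043 was 0.0125. The number of the 35 genes called moved more, and the cause was not tested. The counts below stand without the features called in the same fits. They do not show whether the 35 genes moved apart from all features. At 54 µg of NRCWE-043 (19 called) it was 7 with median centring, 12 without the arrays of high goblet and secretory markers, 10 without those of high heart muscle markers and 10 without those of high adipose markers. At 54 µg of NRCWE-044 (19) it was 1 with median centring and 12 without the adipose arrays. At 54 µg of NRCWE-045 (1) it was 0 with median centring, with Cy5 alone, with only the groups compared, with trend and robust variance, without controls 7 and 29 and without the heart muscle arrays, 2 with the stricter filter, the mean over probes, slide as a fixed block or no adipose arrays, 4 with slide as a random block and 8 with array weights. At 18 µg of NRCWE-043 (0) it was 1 with Cy5 alone, slide as a random block or no controls 7 and 29, and 2 with slide as a fixed block.

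Between the doses of NRCWE-043 (5) it was 0 with median centring, only the groups compared or no goblet and secretory arrays, 2 without heart muscle or adipose arrays, 3 with the mean over probes, 8 with slide as a fixed or random block and 9 with array weights. Between those of NRCWE-044 (18) it was 2 with median centring and 9 without the adipose arrays. For NRCWE-044 against NRCWE-043 at 18 µg (2) it was 0 with median centring, no filter or only the groups compared, 1 with no background subtraction, array weights or no adipose arrays, and 4 with slide as a random block or no heart muscle arrays. For NRCWE-045 against NRCWE-043 at 18 µg (5) it was 0 with median centring, 11 with slide as a fixed block and 8 as a random block. For NRCWE-044 against NRCWE-043 at 54 µg (1) it was 0 with Cy5 alone or no adipose arrays, 2 with scale normalization, marked spots kept or slide as a fixed or random block, and 4 with only the groups compared or array weights. For NRCWE-045 against NRCWE-043 at 54 µg (2) it was 1 with the deposited ratios, median centring, scale normalization, no filter or no controls 7 and 29, 4 with array weights, and 0 without heart muscle or adipose arrays. For NRCWE-045 against NRCWE-044 at 54 µg (0) it was 4 with array weights.

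The median change of the 35 genes moved beyond the spread to -0.14 and -0.16 with median centring at 18 µg of NRCWE-044 and NRCWE-045, to 0.69 with median centring, 0.30 with Cy5 alone and 0.31 without controls 7 and 29 at 54 µg of NRCWE-043, and to 0.44 with scale normalization at 54 µg of NRCWE-044. Leaving out each array in turn gave 13 to 18 called at 54 µg of NRCWE-043, 16 to 18 with NRCWE-044 and 0 to 5 with NRCWE-045, and 0 to 1 at 18 µg of NRCWE-043; it gave 0 to 6 and 14 to 18 between the doses of NRCWE-043 and NRCWE-044. Between materials it gave 0 to 3 and 4 to 7 for NRCWE-044 and NRCWE-045 against NRCWE-043 at 18 µg, and 1 to 2 and 0 to 3 at 54 µg. These counts also stand without the features called in the same fits. They do not show whether the 35 genes moved apart from all features. The median change without single arrays ran from 0.06 to 0.14, -0.01 to 0.08 and -0.08 to -0.03 at 18 µg, and from 0.33 to 0.40, 0.32 to 0.40 and 0.15 to 0.34 at 54 µg, for NRCWE-043, then NRCWE-044, then NRCWE-045. No paired analysis was possible because each array carries a replicate number of its own.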
